A study of Homo sapiens with 6 samples.

Results

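Transcript levels of 7 genes, NDRG1, BHLHE40, CITED2, STC2, BNIP3, BNIP3L and DDIT4, were compared between 786-O cells overexpressing OGT and their controls. They were taken by gene symbol from a table of 62703 genes, 1 row each, for their known induction by low oxygen, and all 7 passed the filter on low values. RNA sequencing of total RNA gave 6 libraries, 3 labelled as OGT overexpressed and 3 labelled NC, of wild-type genotype, referred to here as control. 786-O cells come from a human renal tumour of the clear cell type, lack functional VHL protein and are known for constitutive HIF-2α, and both groups share that background. OGT adds single N-acetylglucosamine sugars to nuclear and cytosolic proteins. The construct, the vector in the control cells and whether each line is a clone or a pool were not given in the sources used here, and nothing says that replicates came from separate cultures.

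HIF proteins are transcription factors that VHL marks for degradation when oxygen is present, so that cells without VHL can express HIF targets in normal oxygen. The 7 genes act downstream of HIF at different points. BHLHE40 is a repressor of transcription that binds E-box sequences, and CITED2 occupies the docking surface on the coactivators CBP and p300 that HIF-α subunits also use. DDIT4, also called REDD1, restrains the growth kinase complex mTORC1 through the TSC1 and TSC2 proteins. NDRG1 is a cytosolic protein induced by low oxygen and by iron depletion, and STC2 is a secreted glycoprotein. BNIP3 and BNIP3L, also called NIX, sit in the outer mitochondrial membrane and bind ATG8 proteins of the autophagosome, which marks mitochondria for removal by mitophagy.

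Promoter sequences are shown because all 7 genes were higher with OGT and are known for induction by HIF. RefSeq windows of GRCh38.p14 matched 5 of the 7 genes, and none is shown for NDRG1 or BNIP3L. Each window is the 250 bases before the start that RefSeq gives, for CITED2 the outermost of 3, and RefSeq starts differ from the GENCODE gene bounds printed further on. In GENCODE release 29 all 250 bases of the BHLHE40 and STC2 windows lie in the 5′ untranslated part of the gene, so only the other 3 are printed, 5′ to 3′ on the strand of the gene. Of those, the BNIP3 window has 90 bases in an annotated first exon, the DDIT4 window 4 and the CITED2 window 0. Capitals mark ACGTG and GCGTG, the letters of the HIF-binding core, on either strand, so that they also appear as CACGT and CACGC. The windows lie at chr3:4979187-4979436 (plus strand, BHLHE40), chr6:139374649-139374898 (minus strand, CITED2), chr10:72273674-72273923 (plus strand, DDIT4), chr5:173328415-173328664 (minus strand, STC2) and chr10:131981924-131982173 (minus strand, BNIP3).
CITED2: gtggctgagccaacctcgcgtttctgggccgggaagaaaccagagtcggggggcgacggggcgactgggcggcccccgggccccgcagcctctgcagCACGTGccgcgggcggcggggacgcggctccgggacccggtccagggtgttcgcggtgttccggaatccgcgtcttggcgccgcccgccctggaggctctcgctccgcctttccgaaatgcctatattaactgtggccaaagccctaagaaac
DDIT4: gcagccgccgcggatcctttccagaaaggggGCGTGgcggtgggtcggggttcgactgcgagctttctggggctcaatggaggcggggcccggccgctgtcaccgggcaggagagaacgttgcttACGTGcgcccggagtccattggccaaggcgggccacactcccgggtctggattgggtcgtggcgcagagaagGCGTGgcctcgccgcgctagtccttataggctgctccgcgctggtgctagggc
BNIP3: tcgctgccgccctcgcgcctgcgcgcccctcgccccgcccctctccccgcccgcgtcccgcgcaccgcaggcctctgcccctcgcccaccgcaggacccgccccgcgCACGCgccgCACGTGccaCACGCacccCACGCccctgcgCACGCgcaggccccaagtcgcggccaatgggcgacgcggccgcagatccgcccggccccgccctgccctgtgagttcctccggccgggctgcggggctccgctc

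All 5 windows held ACGTG or GCGTG, as did 43.2% of the 35116 windows of that length in the RefSeq table. The shares over all windows were not restricted by chromosome. ACGTG alone, found in 18.5% of all windows, was in those of BHLHE40, CITED2, DDIT4 and BNIP3. For CITED2 this holds for the outermost window only. Its other windows, which are not printed, each held 1 GCGTG and no ACGTG, whereas the shares count every window. The STC2 window held 3 copies of GCGTG, a motif of 32.2% of all windows, and no ACGTG. BNIP3 had the most, with 2 matches to ACGTG and 4 to GCGTG between 143 and 104 bases before its RefSeq start. The palindrome CACGTG, an E-box of the kind that BHLHE40 binds, contains ACGTG on both strands and is counted in both. It lay 245 bases before the RefSeq start in BHLHE40 itself, 153 bases before it in CITED2 and 134 bases before it in BNIP3, and occurred in 6.34% of all windows. The windows are rich in G and C, from 63.6% in STC2 to 81.6% in BNIP3, and the shares over all windows were not matched for that. A match describes letters in a window and does not show that a factor was bound.

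Levels are given as TPM, a transcript abundance scaled by transcript length and library, so levels of different genes can be compared. The 6 totals ran from 993935.5 to 996951.6 TPM. Read totals cannot be recovered from TPM, so depth and counting error are unknown. OGT itself was 326 ± 47.3 TPM in the overexpressing cells and 23.1 ± 0.525 TPM in controls (SD, n = 3 each). Of 12645 genes tested on log2(TPM + 1) with limma, 4941 were higher with OGT, which is 39.1%, and 1227 were lower, which is 9.70%, at a Benjamini-Hochberg adjusted p below 0.05. Over all tested genes the log2 change had a median of 0.30, so a change near that value was typical. Medians were larger for transcripts of low GC content: 0.75 in 1471 genes of at most 40% GC, 0.44 in 2236 genes over 45% and up to 50%, 0.23 in 2130 genes over 50% and up to 55%, and 0.10 in 2040 genes over 55% and up to 60%. The changes of the 7 genes, and those of most genes named after them, are therefore also given after a correction that removes, library by library, the trend of expression on GC and length, called the trend-corrected change. All 8 renal epithelial markers checked passed the filter, and their sum was 5059 to 5101 TPM with OGT and 4276 to 4565 TPM in controls. Of these 8 markers 3 were higher and 2 lower. VIM, the most abundant of them, was 2773 ± 10.1 TPM with OGT and 1872 ± 103 TPM in controls (log2 change 0.57, limma adjusted p = 0.000146). Its means differed by 901 TPM, and no other of these markers rose by more than the 62.9 TPM of PAX8. The higher sum thus rests on VIM. PAX8, a renal lineage factor, was 199 ± 13.4 TPM with OGT and 136 ± 9.72 TPM in controls (log2 change 0.55, adjusted p = 0.00115). The keratin gene KRT18 was lower (log2 change -0.35, adjusted p = 0.00103), as was CD70 (-0.46, adjusted p = 0.000237). The 6 fibroblast and 4 endothelial markers reached at most 2.35 and 4.22 TPM in any library, and COL3A1 and CDH5 were listed at 0. Of the leukocyte markers CD68 alone passed the filter, at 108 ± 10.1 TPM with OGT and 64.8 ± 3.68 TPM in controls. PTPRC, the pan-leukocyte marker CD45, was 12.23 TPM in control replicate 1, at most 0.07 TPM in the other controls and listed at 0 in all OGT libraries. The summed leukocyte markers ran from 102 to 120 TPM with OGT and from 67.1 to 73.0 TPM in controls, and the part of CD68, PTPRC or any other cell type in the results below was not tested. In bulk RNA a higher level per cell and a larger share of cells with the transcript cannot be told apart.

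All 7 genes were higher with OGT overexpression, and for each of them the 3 OGT libraries lay above the 3 control libraries. Such a separation upward was seen in 46.2% of all genes tested, and a call as higher in 39.1%. The members' median log2 change was 0.56, against 0.30 for all tested genes. The changes fell in the order BNIP3L, BHLHE40, CITED2, NDRG1, DDIT4, BNIP3 and STC2, at 1.10, 0.97, 0.73, 0.56, 0.48, 0.41 and 0.27 on the log2 scale. They stood between the 91.4th percentile of all tested genes for BNIP3L and the 47.6th for STC2. Summed over the 7 genes, the level was 1639 to 1723 TPM in OGT libraries and 1176 to 1206 TPM in controls. With the trend correction 4 of the 7 genes remained higher, against 16.0% of the 12348 genes with a reference transcript. Quantile normalization gave 6 of 7, against 20.2% of all genes, and centring each library on its median gave 3 of 7, against 15.3%. BHLHE40 and CITED2 were the 2 members called under all of these scalings.

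**Figure D1:**
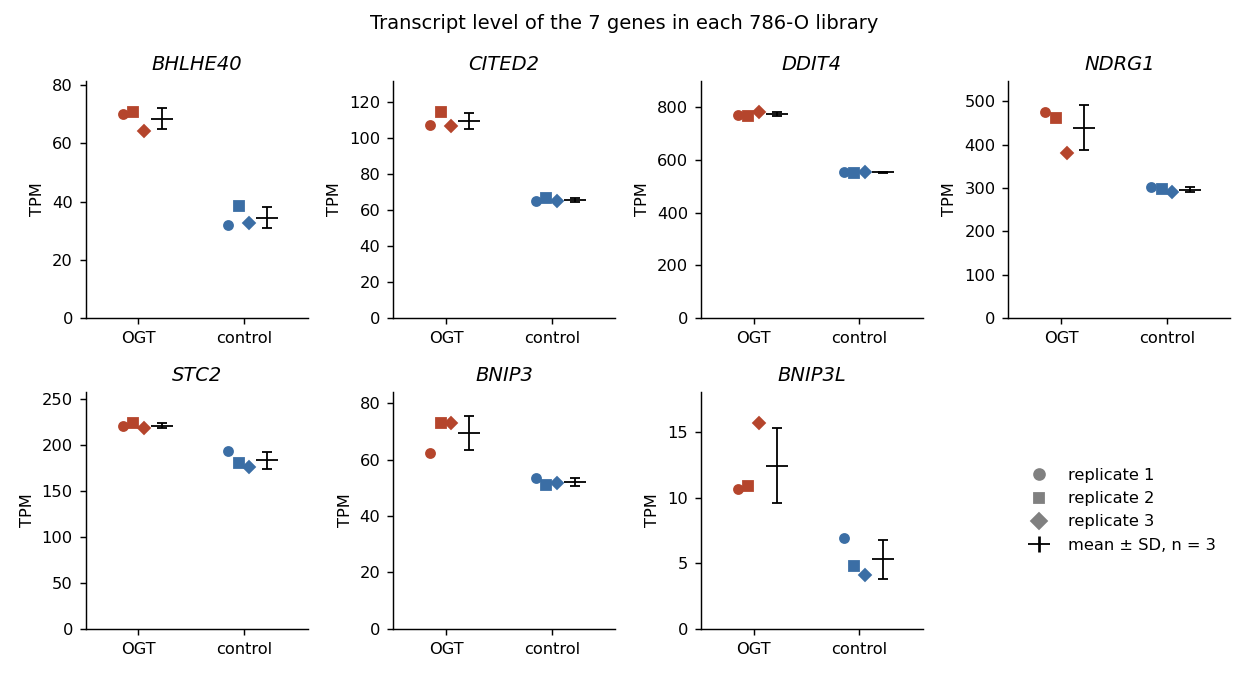
TPM of each gene in every library, OGT libraries left and control libraries right, with the mean and SD of 3 libraries beside the points; each panel has its own axis from 0. In all 7 panels the OGT points lie above the control points, with the narrowest relative gap in STC2 (218.55 TPM in the lowest OGT library, 194.09 TPM in the highest control).

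The 2 nuclear regulators gave the changes that held under every scaling tried. BHLHE40 (ENSG00000134107, chromosome 3, 4979116 to 4985323, plus strand, GENCODE release 29) had 70.18, 70.79 and 64.4 TPM in OGT libraries and 32.11, 38.57 and 32.72 TPM in controls. The lowest OGT library was thus well above the highest control. Its mean was 1.99 times the control mean, 68.5 ± 3.53 against 34.5 ± 3.57 TPM, which is a log2 difference of 0.97 (SE 0.0878, limma adjusted p = 0.000264). Genes of its GC class had a median of 0.23. The trend-corrected change was 0.66 (95% interval 0.45 to 0.87, adjusted p = 0.00231), and that after median centring was 0.58 (adjusted p = 0.00336). BHLHE40-AS1, an antisense transcript that overlaps the 5′ end of the gene, was at most 0.34 TPM in any library.

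CITED2 (ENSG00000164442, chromosome 6, 139371807 to 139374620, minus strand) had 107.34, 114.57 and 106.52 TPM in OGT libraries and 64.91, 66.83 and 65.23 TPM in controls. Replicates were tight in both groups, and the groups did not overlap. The means were 109 ± 4.43 and 65.7 ± 1.03 TPM, which is a log2 difference of 0.73 (SE 0.0521, limma adjusted p = 0.000128), against a median of 0.44 in its GC class. The trend-corrected change was 0.38 (95% interval 0.26 to 0.50, adjusted p = 0.00257), and that after median centring 0.34 (adjusted p = 0.00401). An annotated antisense transcript over the same region, AL592429.2, was listed at 5.74 TPM in OGT replicate 2, at 25.29 TPM in control replicate 3 and at 0 in the other 4 libraries. CITED2 itself was 114.57 and 65.23 TPM in those 2 libraries.

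DDIT4 was the most abundant of the 7 transcripts and NDRG1 the next, with OGT means 1.4 and 1.48 times the control means. DDIT4 (ENSG00000168209, chromosome 10, 72273920 to 72276036, plus strand) had 768.87, 767.62 and 781.2 TPM with OGT and 552.31, 549.58 and 555.31 TPM in controls. The coefficient of variation was 0.972% in the OGT group and 0.519% in the controls, the smallest of the 7 genes in both. The log2 change was 0.48 (SE 0.0297, limma adjusted p = 7.84e-05). It was the only member whose change grew with the trend correction, to 0.56 (95% interval 0.49 to 0.63, adjusted p = 0.000106). Genes of its GC class had a median change of 0.10. Centring on the library median left 0.09 (adjusted p = 0.107). In the OGT libraries DDIT4 ranked 193 among the tested genes by level, and in the controls 258.

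NDRG1 (ENSG00000104419, chromosome 8, 133237171 to 133302022, minus strand) had 475.09, 461.32 and 380.13 TPM with OGT and 301.98, 296.55 and 290.75 TPM in controls. The third OGT library was lower than the other two but still above every control. The means were 439 ± 51.3 and 296 ± 5.62 TPM (log2 change 0.56, SE 0.0834, limma adjusted p = 0.00184). The trend-corrected change was 0.38 (95% interval 0.22 to 0.54, adjusted p = 0.00754), and that after median centring 0.17 (adjusted p = 0.131). Among its relatives NDRG3 rose, at 21.2 ± 0.62 TPM with OGT and 15.3 ± 0.345 TPM in controls (log2 change 0.44, adjusted p = 0.00406), but it was not called after quantile normalization (adjusted p = 0.241) or median centring (adjusted p = 0.633) and had a change of -0.05 after the trend correction (adjusted p = 0.628). NDRG2 was 1.70 ± 1.27 TPM with OGT and 4.32 ± 1.56 TPM in controls and missed the threshold (log2 change -1.04, adjusted p = 0.0534; trend-corrected -1.19, adjusted p = 0.0539). It passed without OGT replicate 2 (log2 change -1.40, adjusted p = 0.0183) and under quantile normalization or median centring (adjusted p = 0.0193 and 0.0188). NDRG4 was 1.19 ± 0.119 TPM with OGT and 2.03 ± 0.838 TPM in controls, with no call as deposited (log2 change -0.42, adjusted p = 0.206; trend-corrected -0.60, adjusted p = 0.139), and was called lower without control replicate 2 (adjusted p = 0.0483) and under quantile normalization or median centring (adjusted p = 0.0443 and 0.0333).

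STC2 showed the smallest difference. STC2 (ENSG00000113739, chromosome 5, 173314713 to 173329503, minus strand) had 221.3, 224.75 and 218.55 TPM with OGT and 194.09, 180.43 and 176.09 TPM in controls. The groups did not overlap, and the OGT mean was 1.21 times the control mean. The log2 change was 0.27, below the median of all tested genes (95% interval 0.16 to 0.39, limma adjusted p = 0.00379), against 0.23 in its GC class. It turned negative with the trend correction, to -0.14 (95% interval -0.25 to -0.02, adjusted p = 0.0853), and with median centring, to -0.12 (adjusted p = 0.0994). Its paralogue STC1, also a secreted glycoprotein, was far less abundant and called under all of these scalings. It was 6.22 ± 0.634 TPM with OGT and 2.06 ± 0.242 TPM in controls, a log2 change of 1.24 (adjusted p = 0.00107) and 0.57 after the trend correction (adjusted p = 0.0252).

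**Figure D2:**
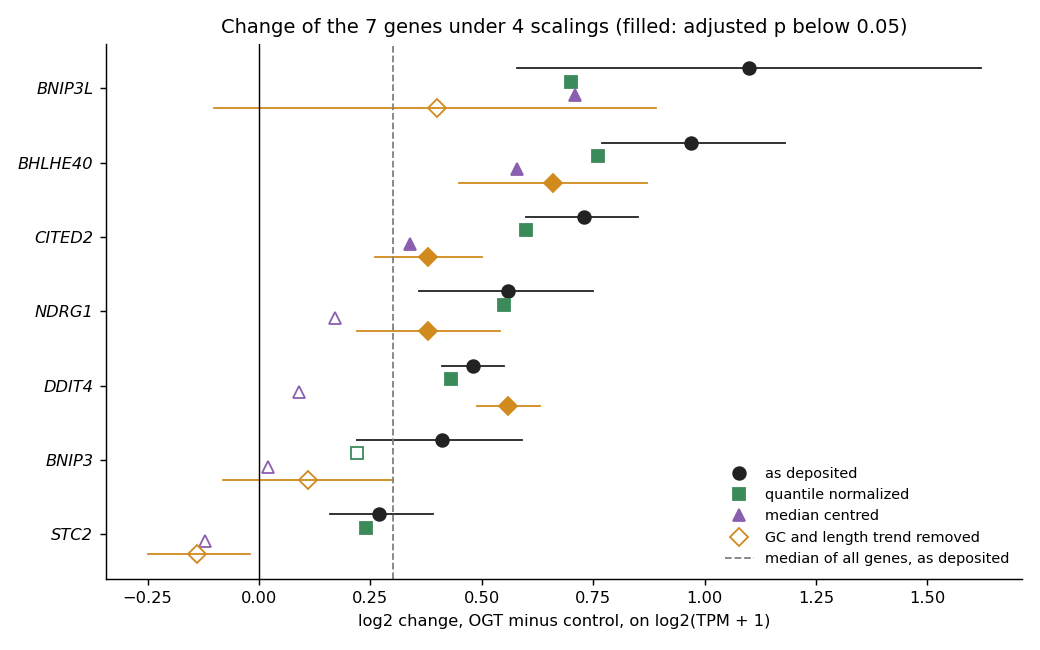
Log2 change of each gene, OGT minus control, as deposited, after quantile normalization, after median centring and after removal of the trend on GC content and length; filled symbols have a limma adjusted p below 0.05 and the lines are 95% intervals for the values as deposited and trend-corrected. BHLHE40 and CITED2 keep filled symbols throughout, and STC2 has its median-centred and trend-corrected values left of 0 (-0.12 and -0.14).

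Both mitophagy receptors were higher with OGT, BNIP3L by the larger factor from the lower level. BNIP3 (ENSG00000176171, chromosome 10, 131966455 to 131982013, minus strand) had 62.45, 73.05 and 72.9 TPM in OGT libraries and 53.6, 51.03 and 51.61 TPM in controls. All OGT libraries were above the controls, the first of them by the least. The means were 69.5 ± 6.08 and 52.1 ± 1.35 TPM, which is a log2 difference of 0.41 (SE 0.0764, limma adjusted p = 0.00476). The call was lost under quantile normalization (log2 change 0.22, adjusted p = 0.0804), median centring (0.02, adjusted p = 0.887) and the trend correction (0.11, 95% interval -0.08 to 0.30, adjusted p = 0.35). The table lists 39 BNIP3 pseudogenes, whose reads could be shared with the gene. Of these 7 were above 0, together 1.43 to 1.77 TPM in OGT libraries and 0.35 to 1.47 TPM in controls, which is at most 2.43% and 2.74% of BNIP3.

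BNIP3L (ENSG00000104765, chromosome 8, 26382898 to 26505636, plus strand) had 10.62, 10.91 and 15.7 TPM in OGT libraries and 6.95, 4.8 and 4.13 TPM in controls. The third OGT library was the highest and the groups did not overlap, with the widest relative spread of the 7 genes. The mean was 2.34 times the control mean, 12.4 ± 2.85 against 5.29 ± 1.47 TPM (log2 change 1.10, SE 0.22, limma adjusted p = 0.00616). BNIP3L has the lowest GC content of the 7 reference transcripts, 38.9%, in a class with a median change of 0.75. The trend-corrected change was 0.40 (95% interval -0.10 to 0.89, adjusted p = 0.202). The call held after median centring (0.71, adjusted p = 0.0385) and quantile normalization (0.70, adjusted p = 0.0433). PNMA2, a protein-coding gene on the opposite strand that overlaps its 3′ end, was 7.2 to 8.45 TPM with OGT and 5.4 to 6.67 TPM in controls, and whether the counting separated strands is not given in the sources used here.

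Summed, the 2 receptors were 81.9 ± 7.97 TPM with OGT and 57.4 ± 2.75 TPM in controls, 1.43 times as much. BNIP3 was 5.88, 6.70 and 4.64 times as abundant as BNIP3L in the OGT libraries, against 7.71, 10.6 and 12.5 times in the controls. Every OGT ratio was below every control ratio, and a factor common to all genes of a library cancels in this ratio. BNIP3L made up 14.5, 13.0 and 17.7% of the summed receptor transcript with OGT and 11.5, 8.60 and 7.41% in controls. The difference in log2 ratio was -0.83, with means of 2.50 ± 0.268 and 3.33 ± 0.354 (two-sided exact permutation test, p = 0.1, the smallest that 3 against 3 libraries can give). The 2 transcripts differ in GC content, 51.4% for BNIP3 and 38.9% for BNIP3L. Their log2 changes were 0.41 and 1.10 as deposited and lay closer together after the trend correction, at 0.11 and 0.40, with neither called. The ratio was not computed with the trend removed, and the part of GC content in it was not tested.

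**Figure D3:**
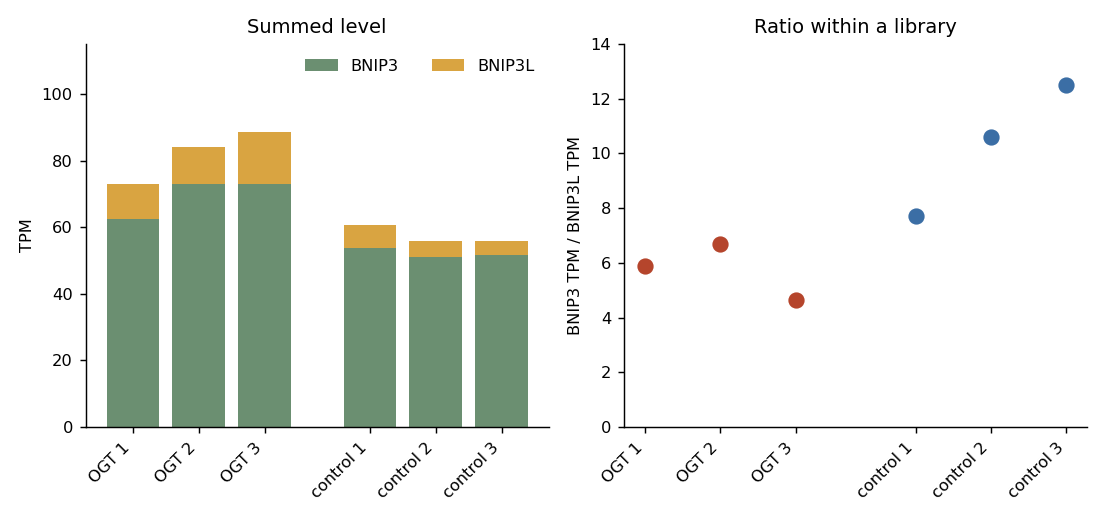
Left, stacked TPM of BNIP3 and BNIP3L in each library; right, their ratio in each library, OGT libraries first. The sums run from 73.07 to 88.6 TPM with OGT and from 55.74 to 60.55 TPM in controls, and the ratio from 4.64 to 6.70 with OGT and from 7.71 to 12.5 in controls.

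The order of levels was DDIT4, NDRG1, STC2, CITED2, BNIP3, BHLHE40 and BNIP3L in both groups. In controls each gene stood above the next in all libraries. In OGT libraries BNIP3 and BHLHE40 overlapped, at 62.45 to 73.05 and 64.4 to 70.79 TPM, so their order there is not resolved. In controls BHLHE40 was 32.11 to 38.57 TPM and BNIP3 51.03 to 53.6 TPM.

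**Figure D4:**
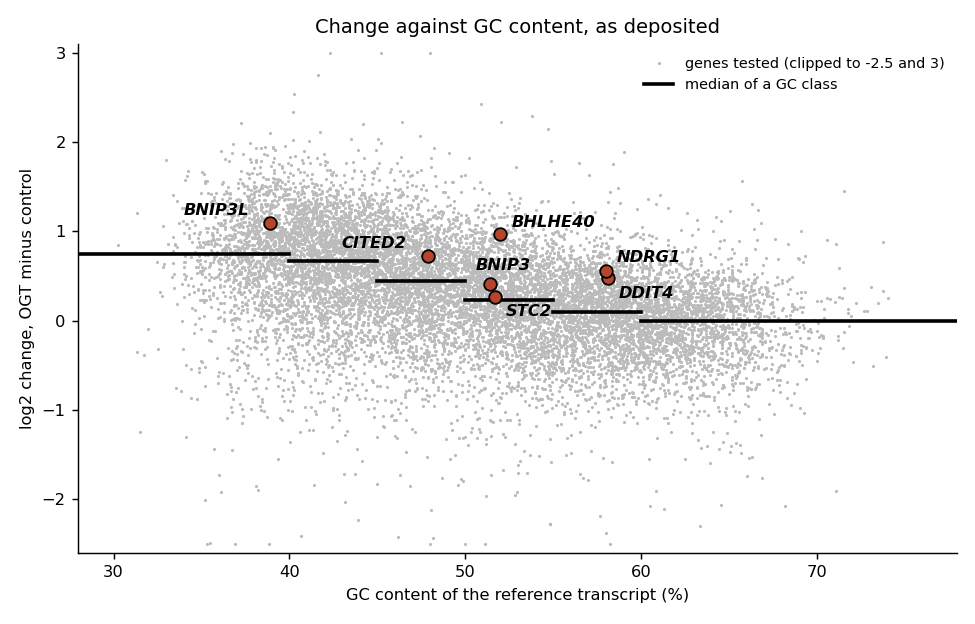
Log2 change as deposited against the GC content of the reference transcript for the tested genes in grey, with black lines for the median of each GC class and the 7 genes in red. BHLHE40, NDRG1 and DDIT4 lie above their class medians (0.23, 0.10 and 0.10), while STC2, at 0.27, lies close to its own (0.23).

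The other genes of these pathways were read from 9 lists holding 100 tested genes, of which 59 were higher, 3 lower and the rest not called as deposited. Of all tested genes 39.1% were higher and 9.70% lower, and the counts of each list below are to be read against these shares. After the trend correction 29 were higher, against 16.0% of all genes, and 4 lower, against 1550 of 12348 genes. The remaining relatives of the 7 genes were low or unresolved. BHLHE41, the other repressor of the BHLHE40 kind, was 9.81 ± 0.974 TPM with OGT and 8.21 ± 3.68 TPM in controls and not called (log2 change 0.30, limma adjusted p = 0.386). Without control replicate 2 it was called (0.60, adjusted p = 0.0237), and under the 3 scalings it was slightly negative (-0.13 to -0.09). CITED4 was 3.44 ± 0.166 TPM with OGT and 2.91 ± 0.60 TPM in controls, with a log2 change of 0.19 (adjusted p = 0.41) that was negative after median centring and quantile normalization and 0.38 after the trend correction (adjusted p = 0.127). CITED1 and DDIT4L did not pass the filter and reached at most 1.54 TPM.

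Among 13 other mitophagy receptors and adaptors 6 rose and PINK1 fell, with a median log2 change of 0.16, below that of all genes. These counts are close to the 39.1% higher and 9.70% lower of all tested genes. TAX1BP1, a ubiquitin-binding adaptor, rose to 14.1 ± 1.61 TPM with OGT, against 3.28 ± 0.474 TPM in controls (log2 change 1.83, limma adjusted p = 0.000193; trend-corrected 1.32, adjusted p = 0.00119). PINK1, the kinase that marks depolarised mitochondria for removal, was 191 ± 2.41 TPM with OGT and 279 ± 17.0 TPM in controls (log2 change -0.54, adjusted p = 0.000341; trend-corrected -0.61, adjusted p = 0.000355). It was thus lower while both BNIP3 and BNIP3L were higher as deposited. The adaptor genes OPTN and CALCOCO2 had log2 changes of 0.66 and 0.94 (adjusted p = 0.00104 and 0.0036), with no call after the trend correction (0.05 and 0.30). The trend correction left 1 of the 13 higher and 2 lower, PINK1 and the adaptor SQSTM1, named after its value was seen (-0.15, adjusted p = 0.0115). The split was 4 and 4 with median centring.

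BNIP3 and BNIP3L are removed from mitochondria through a cullin ligase whose substrate receptor is FBXL4, helped by the phosphatase PPTC7. Of 7 tested genes of receptor turnover 5 rose and 0 fell in limma, also 0 at an unadjusted p below 0.05 and 0 without trend or robust moderation. The scaffold CUL1 had a log2 change of 1.07 (limma adjusted p = 0.000612), the mitochondrial ligase MUL1 one of 0.57 (adjusted p = 0.000858) and the ring protein RBX1 one of 0.62 (adjusted p = 0.00147). All 3 were called after the trend correction (0.50, 0.50 and 0.51), while MUL1 and RBX1 were not after median centring (adjusted p = 0.104 and 0.0929). FBXL4 itself was 3.24 ± 1.56 TPM with OGT and 2.01 ± 1.98 TPM in controls without a call (log2 change 0.63, adjusted p = 0.314; trend-corrected -0.13, adjusted p = 0.857). Of the ATG8 genes, which encode the autophagosome proteins that the receptors bind, 4 of 7 were tested. MAP1LC3B rose to 46.6 ± 1.16 TPM with OGT, against 20.1 ± 2.44 TPM in controls (log2 change 1.18, adjusted p = 0.000194; trend-corrected 0.82, adjusted p = 0.00179), and the 3 GABARAP genes were not called as deposited. GABARAP was lower after median centring (-0.32, adjusted p = 0.0222). Without OGT replicate 3 there were 2 ATG8 genes higher in place of 1.

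Of 9 tested genes around DDIT4 in the TSC and mTORC1 pathway 6 rose and 1 fell. RPTOR, a subunit of mTORC1, rose to 32.6 ± 1.94 TPM with OGT, against 21.6 ± 0.834 TPM in controls (log2 change 0.57, limma adjusted p = 0.00128; trend-corrected 0.34, adjusted p = 0.012). TSC1, which together with TSC2 links DDIT4 to mTORC1, had a log2 change of 1.03 (adjusted p = 0.00292) with no call after the correction (0.49, adjusted p = 0.0709). TSC2 was 57.0 ± 2.75 TPM with OGT and 59.5 ± 7.02 TPM in controls (log2 change -0.05, adjusted p = 0.664; named after its value was seen). Its change was -0.28 after the trend correction (adjusted p = 0.0889), and it was called lower after median centring (-0.44, adjusted p = 0.00716). SESN2, a stress-induced mTORC1 inhibitor, had a log2 change of 0.48 (adjusted p = 0.00293; trend-corrected 0.35). RPTOR and SESN2 were not called after median centring (adjusted p = 0.106 and 0.434). MLST8, an mTORC1 subunit, fell (log2 change -0.28, adjusted p = 0.0338), a call lost without OGT replicate 1 or 3 or control replicate 3 (adjusted p = 0.0852, 0.0914 and 0.0701) and after the trend correction (-0.17, adjusted p = 0.147). It was called lower with a larger change after quantile normalization (-0.44, adjusted p = 0.00396) and median centring (-0.66, adjusted p = 0.000938). The list stood at 2 higher and 0 lower after that correction, and at 1 higher and 3 lower after median centring.

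Of 7 tested genes for partners of CITED2, the HIF subunits among them, 6 rose and 0 fell in limma, also 0 at an unadjusted p below 0.05 and 0 without trend or robust moderation, with a median log2 change of 0.94. EPAS1, which encodes HIF-2α, was 63.5 ± 0.883 TPM with OGT and 24.1 ± 0.595 TPM in controls (log2 change 1.36, adjusted p = 3.45e-05; trend-corrected 0.99). CREBBP, the gene of the coactivator CBP, was 15.1 ± 2.88 TPM with OGT and 6.82 ± 0.60 TPM in controls (log2 change 1.03, adjusted p = 0.00194; trend-corrected 0.76, adjusted p = 0.00742). EPAS1 and CREBBP were the 2 called after the correction, and HIF1A was not (log2 change 0.95 as deposited, 0.26 corrected, adjusted p = 0.233). Without OGT replicate 2 the count was 3 higher in place of 6.

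Of 11 tested clock genes, several of which BHLHE40 is known to repress, 5 rose and 0 fell in limma, also 0 at an unadjusted p below 0.05 and 0 without trend or robust moderation. That number of higher genes is close to the 39.1% of all tested genes. NFIL3, a repressor of the clock output, rose to 18.5 ± 0.743 TPM with OGT, against 8.55 ± 0.624 TPM in controls (log2 change 1.03, limma adjusted p = 0.000351; trend-corrected 0.67, adjusted p = 0.0031). The clock genes CRY1 and ARNTL had log2 changes of 1.07 and 1.03 (adjusted p = 0.0041 and 0.00455), without a call after the correction (0.60 and 0.52, adjusted p = 0.0621 and 0.0719). After the correction 2 clock genes were higher and 0 lower. Quantile normalization and median centring each gave 3 higher and 1 lower.

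DDIT4 and STC2 are also induced through ATF4, the transcription factor of the integrated stress response. Of 13 genes of that arm 8 rose and 0 fell in limma, also 0 at an unadjusted p below 0.05 and 0 without trend or robust moderation. Without OGT replicate 2 or control replicate 2 the count was 5. PSAT1, an enzyme of serine synthesis, was 153 ± 5.54 TPM with OGT and 91.1 ± 1.83 TPM in controls (log2 change 0.74, limma adjusted p = 9.12e-05; trend-corrected 0.22, adjusted p = 0.0172). ASNS, which makes asparagine, had a log2 change of 0.54 (adjusted p = 0.000279; trend-corrected 0.15, adjusted p = 0.0689). VLDLR, a lipoprotein receptor, had one of 1.23 (adjusted p = 0.000645; trend-corrected 0.48, adjusted p = 0.028). ATF4 transcript was 581 ± 9.01 TPM with OGT and 567 ± 13.2 TPM in controls without a call (log2 change 0.04, adjusted p = 0.409; trend-corrected 0.04, adjusted p = 0.497; named after its value was seen). After median centring it was called lower (-0.35, adjusted p = 0.000695). With the correction 5 genes were higher and 0 lower, with 3 higher and 4 lower after median centring.

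Of 30 tested genes in a list of other HIF targets 20 rose and 1 fell, with a median log2 change of 0.64, against 0.56 for the 7 genes and 0.30 for all genes tested. The corresponding trend-corrected medians were 0.16, 0.38 and 0.03. The list also held CA9 and ANKRD37, which did not pass the filter and reached at most 0.85 and 1.48 TPM in any library. ADM, which encodes a vasoactive peptide, had a log2 change of 1.21 (limma adjusted p = 4.64e-05; trend-corrected 1.26), against at most 1.10 and 0.66 among the 7 genes. PLOD2, a collagen lysyl hydroxylase, had one of 1.65 (adjusted p = 6.29e-05; trend-corrected 0.96). PLIN2, which coats lipid droplets, had one of 0.45 (adjusted p = 9.76e-05; trend-corrected 0.21), like DDIT4 a small change in an abundant transcript. After median centring PLIN2 was not called (0.06, adjusted p = 0.252). PGK1, a glycolytic enzyme, was called lower (log2 change -0.14, adjusted p = 0.0365). That call was lost without OGT replicate 1, 2 or 3 or control replicate 1 or 2 (adjusted p = 0.0543 to 0.106). The change was larger after the trend correction (-0.86, adjusted p = 8.04e-05) and median centring (-0.52, adjusted p = 0.000154), where it was called lower. After the correction 12 were higher and 2 lower, and after median centring 9 were higher and 4 lower.

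**Figure D5:**
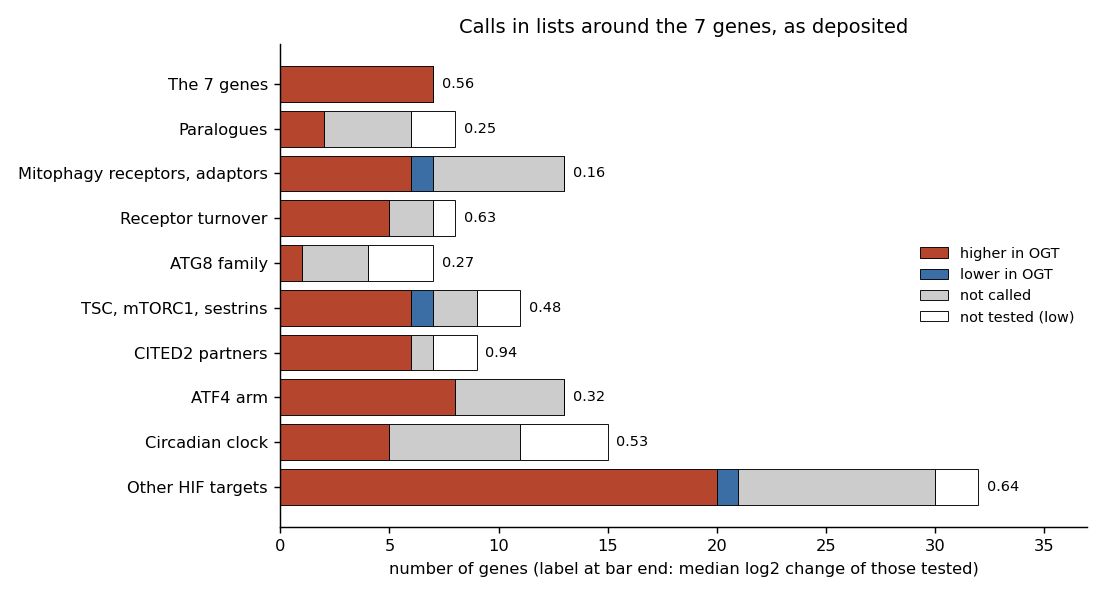
Number of genes in each list called higher or lower with OGT, not called, or not tested because of low values, as deposited; the label at the end of each bar is the median log2 change of the tested genes. All 7 genes of the top bar are higher, while the 13 other mitophagy receptors and adaptors hold 6 higher and 1 lower with the lowest median, 0.16.

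For each of the 7 genes the closest pattern was sought among 8182 other genes that averaged 5 TPM or more, by Pearson correlation of log2(TPM + 1) over the 6 libraries. The closest were RAPGEF3 for NDRG1 (r = 0.9993), KCTD2 for BHLHE40 (r = 0.9992), CTNNB1 for CITED2 (r = 0.9995), RAB1A for STC2 (r = 0.9992), B4GALT4 for BNIP3 (r = 0.9968), UQCRC2 for BNIP3L (r = 0.9975) and PDIA6 for DDIT4 (r = 0.9999). These values are descriptions: with 2 groups of 3 libraries, the difference between the groups sets most of r. A correlation over 0.95 was shared by 23.6% of the candidate genes for CITED2 and 22.9% for DDIT4, but by 2.70% for BNIP3 and 1.89% for BNIP3L. In the OGT group the coefficient of variation was 8.75% for BNIP3 and 23.0% for BNIP3L, against 4.05% for CITED2 and 0.972% for DDIT4.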

How the data were processed

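Total RNA of 786-O cells was sequenced from TruSeq libraries, per the labels' protocols. The authors deposited TPM per gene for 62703 human Ensembl identifiers. The unit was read from the values. How reads were aligned and counted is not given in the sources used here, and GRCm38 and mm10, named in the submitters' processing notes, are mouse builds. Depth is unknown, so no counting error is given. Sample titles gave group and replicate. Replicates of the same number were not paired, since their deviations correlated at -0.0194, 0.00264 and 0.0166.

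The 12645 genes that reached 1 TPM in 3 or more libraries were fitted together by limma 3.58.1 (R 4.3.3) on log2(TPM + 1) (eBayes with trend and robust, two-sided, Benjamini-Hochberg over all genes tested, threshold 0.05). All changes are OGT minus control on that scale, which understates changes of low genes. P-values measure the spread between these libraries, which may be technical. The script was tested on simulated data. GC content and length came from the longest GENCODE release 29 transcript of a gene, protein-coding where there is one, and need not be the transcript expressed. The trend was removed with natural splines of 4 degrees of freedom.

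The members, the lists and the alternatives were chosen with earlier results of these data known. The rule named all 7 members, OGT, EPAS1 and HIF1A, all paralogues and, per list, up to 3 called genes in each direction with the smallest adjusted p. FBXL4, SQSTM1, TSC2, ATF4, GABARAP, PTPRC, VIM, CA9 and ANKRD37 were named after their values were seen.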

Additional observations from a re-analysis of the deposited data

How the results depend on the processing

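The changes of the 7 genes kept their direction and their call with a pseudocount of 0.1, with no filter, with a mean of at least 5 TPM, without trend or robust moderation and with each library left out. Leaving out 1 library gave 0.50 to 0.66 for NDRG1, 0.93 to 1.05 for BHLHE40, 0.70 to 0.75 for CITED2, 0.24 to 0.31 for STC2, 0.37 to 0.48 for BNIP3, 0.93 to 1.28 for BNIP3L and 0.48 to 0.49 for DDIT4. Scaling mattered more. Under median centring STC2 reversed (-0.12), and NDRG1 (0.17), BNIP3 (0.02) and DDIT4 (0.09) lost their calls, leaving 3 members higher. With the GC and length trend removed STC2 reversed (-0.14), and BNIP3 (0.11) and BNIP3L (0.40) lost theirs, leaving 4. Under quantile normalization BNIP3 (0.22) lost its call. Over all genes, quantile normalization gave 2558 higher and 2245 lower, median centring 1937 and 3066, and removal of the trend 1974 and 1550. The medians of all genes were 0.02, -0.09 and 0.03 under these 3 settings. The 9 lists together gave 27 higher after median centring and 29 with the trend removed, against 59. Their lower calls, 3 as deposited, were 8 after quantile normalization, 19 after median centring and 1 with no filter or without trend or robust moderation, and ran from 1 to 4 with 1 library left out. The cause of these differences was not tested.

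With a replicate block the members' calls stayed at 7 higher and 0 lower (log2 change of BNIP3L 1.10, limma adjusted p = 0.0217), those of all genes were 4382 higher and 1091 lower, and those of the ATF4 arm 5 higher, a count also found with no filter. The replicate numbers are not known to pair the libraries. The log2 ratio of BNIP3 to BNIP3L kept its sign under every alternative run, none of which removed the GC and length trend. No p below 0.1 can be reached in that ratio. Unknown depth limits the low transcripts most, BNIP3L and the paralogues among them.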
